A study of Homo sapiens with 8 samples.

Results

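The replication-dependent histone genes are the clustered genes that supply histone protein while DNA is copied. Here they are the 69 protein-coding genes whose symbols belong to the H1-1 to H1-6, H2AC, H2BC, H3C and H4C families, out of 63140 genes in the count table. The linker histone H1 had 6 genes, and the core histones H2A, H2B, H3 and H4 had 17, 18, 13 and 15. On chromosome 6 the cluster at 6p22 held 55 of them, and 11 lay at 1q21, 2 at 1q42 and 1 at 12p12. The choice used names only and no measured value. A filter on low counts left 56 for testing. The other 13 never exceeded 20 counts in a library, and 3 of these (H2AC1, H2BC1 and H4C6) had no count at all.

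The RNA came from 8 pull-down libraries of human acute myeloid leukaemia cells, made by chromatin isolation by RNA purification (ChIRP), in which biotinylated probes capture an RNA together with what is cross-linked to it. The labels do not say which RNA the probes bind and name no input library, so every level below is an amount in a pull-down. All cells were nucleofected and collected on day 3 after editing. In the AAVS1 KO and HOTSCRAMBL KO groups they received Cas9 ribonucleoprotein, a nuclease that cuts DNA, and in the AAVS1 CBE and HOTSCRAMBL CBE groups a cytosine base editor, which converts cytosine bases while leaving the double strand uncut. Guides aimed at AAVS1 served as the editing control, and guides aimed at HOTSCRAMBL, a long non-coding RNA, formed the test groups. Each group had 1 library labelled MOLM13 and 1 labelled OCI-AML4, which are established leukaemia lines, and values are given in that order. The labels do not call the cells clones or say whether the libraries came from separate cultures beyond the line, so p-values measure the spread between these libraries only.

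Replication-dependent histone genes are transcribed in S phase from nuclear bodies organised by the protein NPAT. Their mRNAs lack introns and usually lack a poly(A) tail. Instead they end shortly after a short stem-loop, which is bound by the stem-loop binding protein SLBP and guides cleavage together with the U7 small nuclear RNA. When DNA synthesis stops, the same stem-loop directs rapid decay of the mRNA. The library kit primes total RNA, so transcripts without a poly(A) tail can be counted.

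The stem-loop is shown because it is the element these transcripts share. A pattern of 16 bases with 6 paired positions, spelled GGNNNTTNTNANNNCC and allowing G-T pairs, was searched on the sense strand of GENCODE v29 transcripts. Members were matched to that annotation by gene identifier, and H2AC18, H2AC19, H3C2 and H3C3 had no transcript under theirs. The pattern was found in 29 of the 65 matched members. Of the 36 members without it, 33 had only transcripts whose lengths were multiples of 3, as in models that hold the coding sequence alone, so absence there says nothing of the RNA. The 6 spellings are given with the bases of the loop and stem in capitals.

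Shared by 15 H2A, H2B and H3 genes: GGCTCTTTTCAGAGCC

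Shared by 5 H4 genes: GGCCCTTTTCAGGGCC

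Shared by 4 genes, H2BC4, H2BC5, H2BC7 and H3C8: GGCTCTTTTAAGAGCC

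Shared by 3 H4 genes, H4C9, H4C14 and H4C15: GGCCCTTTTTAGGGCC

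H3C6: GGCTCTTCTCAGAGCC

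H2AC11: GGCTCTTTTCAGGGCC

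When only the last 150 bases of a transcript were searched, 11 of 65 members (16.9%) held the pattern, against 10 of 19619 other protein-coding genes (0.051%). These 10 include the histone gene H3-4 and genes without a symbol here. Whether the unnamed genes are histone genes was not checked, so the background is not free of histone genes. The members' start regions also shared short motifs, searched on both strands of RefSeq promoters (GRCh38.p14, 250 bases before to 50 after the start) for the 64 members that matched. The CCAAT box was present in 54 of them (84.4%) and in 34.5% of 35048 other promoters. All H1, H2A, H2B and H3 promoters matched held it, but only 3 of 13 H4 promoters did. TATAAA was present in 65.6% of members and 11.4% of other promoters. The octamer ATTTGCAT, which POU-domain factors bind, was present in 11 of 16 H2A and 14 of 18 H2B promoters. It was in 1 of 11 H3 promoters and in no H1 or H4 promoter, against 1.7% of other promoters. That H3 promoter was listed for H3C4, but its window (chr6:26199244-26199543, minus strand) is also that of H2AC7. The window lies outside the H3C4 gene as counted, so the same bases entered both the H3 and the H2A shares. The windows of 11 pairs of H2A and H2B genes also overlap. With both strands searched, 1 site can count for both genes of a pair, so the H2A and H2B shares are not independent. The motifs do not contain one another, but TATAAA read on both strands can overlap itself. Promoters of an H3, an H2A and an H4 gene are printed with each motif in capitals.

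H3C7, chr6:26250586-26250885, minus strand: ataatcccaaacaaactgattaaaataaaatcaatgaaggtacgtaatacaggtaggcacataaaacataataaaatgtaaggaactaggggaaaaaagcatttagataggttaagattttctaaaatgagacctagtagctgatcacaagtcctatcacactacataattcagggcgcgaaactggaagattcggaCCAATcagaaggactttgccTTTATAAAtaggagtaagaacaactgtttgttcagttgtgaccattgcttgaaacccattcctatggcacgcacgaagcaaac

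H2AC11, chr6:27132793-27133092, plus strand: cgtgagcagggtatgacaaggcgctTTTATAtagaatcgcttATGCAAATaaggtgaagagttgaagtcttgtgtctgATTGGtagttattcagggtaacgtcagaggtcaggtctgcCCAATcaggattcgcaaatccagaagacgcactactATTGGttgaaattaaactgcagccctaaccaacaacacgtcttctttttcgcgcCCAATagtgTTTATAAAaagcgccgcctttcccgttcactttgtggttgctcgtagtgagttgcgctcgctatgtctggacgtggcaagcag

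H4C2, chr6:26027234-26027533, minus strand: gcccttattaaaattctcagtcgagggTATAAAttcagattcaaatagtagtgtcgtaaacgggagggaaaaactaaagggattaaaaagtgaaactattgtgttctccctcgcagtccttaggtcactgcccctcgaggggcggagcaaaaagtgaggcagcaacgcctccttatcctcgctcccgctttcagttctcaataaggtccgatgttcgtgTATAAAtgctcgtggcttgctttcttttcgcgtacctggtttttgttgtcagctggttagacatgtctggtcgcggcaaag

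The H2AC11 window holds all 3 motifs, that of H3C7 holds the CCAAT box and TATAAA, and that of H4C2 holds TATAAA only. The H2AC11 window also reaches the start of H2BC11 at chr6:27132795 on the minus strand. Its motifs, the octamer among them, therefore cannot be assigned to H2AC11 rather than H2BC11.

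Library totals ran from 20548300 to 37970163 counts. The myeloid markers PTPRC, CD33, SPI1, LYZ, MPO, CSF3R and FLT3 were counted, while KIT had 20 counts over all libraries. Markers of erythroid cells summed to at most 0.212 CPM (counts scaled to a common library size) in a library, those of epithelial cells and fibroblasts to at most 1.72 and 1.02, and those of T cells to at most 12.3, mostly from TRAC. The summed T cell markers were between 4.13 and 5.97 CPM for AAVS1 CBE and between 9.88 and 12.3 CPM for HOTSCRAMBL CBE; the part of that difference in the results below was not tested. No gene of the table is named HOTSCRAMBL, so the edit itself was not checked here.

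Base editing at HOTSCRAMBL went with a rise of the histone genes as a family. Summed over all 69 genes, the level scaled by the trimmed mean of M-values (TMM) was 2127 and 2062 CPM for AAVS1 CBE, and 4930 and 5342 CPM for HOTSCRAMBL CBE. Both edited libraries lay far above both controls, by 2.32-fold in the MOLM13 label and 2.59-fold in the OCI-AML4 label. With Cas9 the sums were 2060 and 2087 CPM for AAVS1 KO and 2330 and 2407 CPM for HOTSCRAMBL KO, a ratio of 1.13 and 1.15. Scaled to library totals alone, the KO ratios were 1.04 and 1.01 and the CBE ratios 2.11 and 2.35. In bulk pull-down libraries with no input named, changes in the share of cells in S phase, in RNA per cell and in capture cannot be told apart.

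**Figure D1:**
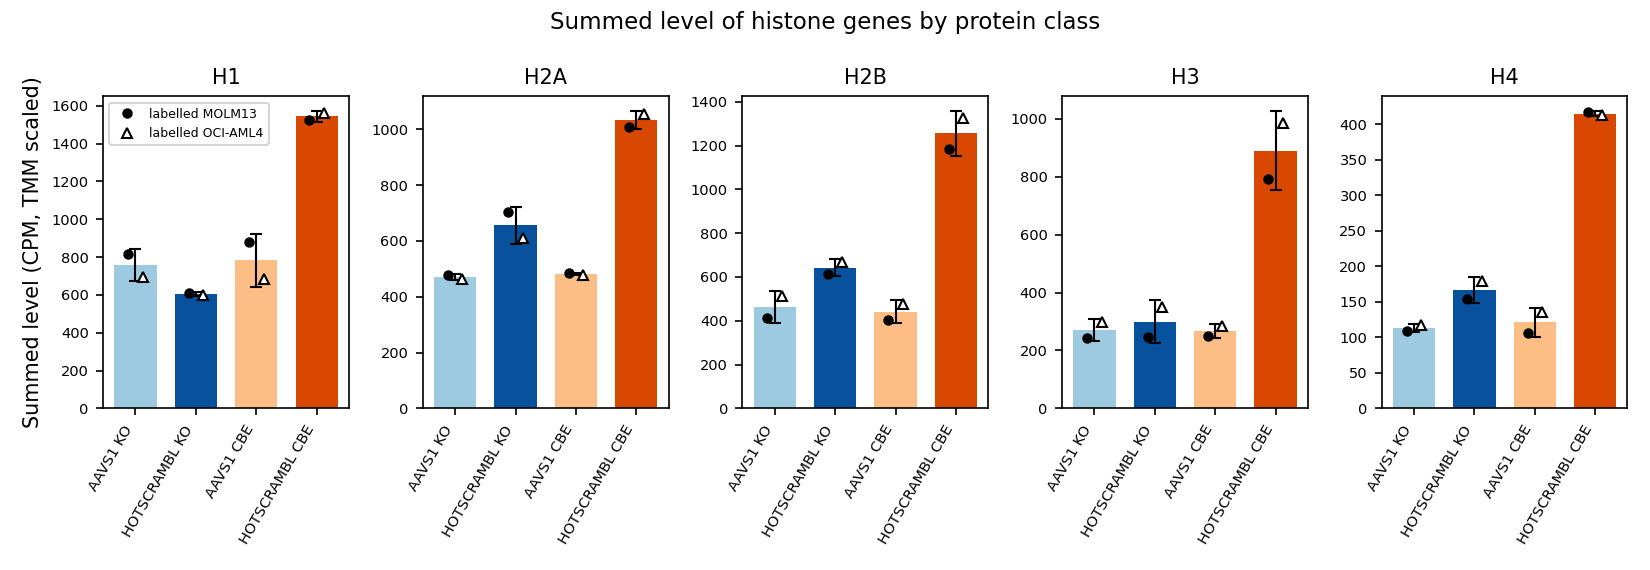
Summed level of each histone class (CPM, TMM scaled) in the 4 groups; bars are means of 2 libraries, error bars SD, circles the MOLM13 label and triangles the OCI-AML4 label. Both HOTSCRAMBL CBE libraries stand above all other libraries in every class, and H1 is the class in which both HOTSCRAMBL KO libraries lie below both AAVS1 KO libraries.

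The test was edgeR's quasi-likelihood test over 24057 genes, with a term for group and a term for labelled line, and a gene was called at a Benjamini-Hochberg adjusted p under 0.05. In HOTSCRAMBL CBE, 42 of 56 tested histone genes rose and 0 fell, where 8.83% of all genes tested were called, 4.56% higher and 4.27% lower. Their median log2 fold change was 1.44, against -0.02 over all genes tested. Both edited libraries lay above both controls in 52 of the 56, against 22.8% of all genes, and below both in 0, against 23.7%. By class, 4 of 6 H1 genes, 10 of 15 H2A, 13 of 14 H2B, 6 of 9 H3 and 9 of 12 H4 genes were called, with medians of 1.00, 1.25, 1.67, 1.39 and 1.87. The 14 genes not called included 6 with a mean under 1 CPM, among them H1-1, the only member with a negative value, at -1.64 with a standard error of 2.17.

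Linker histones bind DNA where it enters and leaves the nucleosome. H1-4 had the highest level per length of all members, 673 CPM per kilobase averaged over the libraries. It lies at chr6:26156329-26157115 on the plus strand. Its level was 475.6 and 433.1 CPM for AAVS1 KO, 303.7 and 344.0 for HOTSCRAMBL KO, 529.9 and 404.1 for AAVS1 CBE, and 831.5 and 914.2 for HOTSCRAMBL CBE. It was lower in both KO libraries and higher in both CBE libraries than in any control, with no overlap in either direction. The log2 fold change was -0.48 (SE 0.12, edgeR adjusted p = 0.00811) with Cas9 and 0.90 (SE 0.11, adjusted p = 2.2e-06) with base editing. H1-4 was the only member that fell with Cas9. That call was lost when only the 4 libraries of the contrast were fitted. The call was also lost when either AAVS1 KO library or the MOLM13-labelled HOTSCRAMBL KO library was left out.

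The other 3 abundant linker genes passed the test with base editing and not with Cas9. H1-3 was at 58.4 and 61.9 CPM for AAVS1 KO, 58.0 and 37.6 for HOTSCRAMBL KO, 58.6 and 69.0 for AAVS1 CBE, and 180.0 and 145.6 for HOTSCRAMBL CBE. H1-5 was at 148.1 and 118.8 CPM for AAVS1 CBE and 289.4 and 251.6 for HOTSCRAMBL CBE, while its 4 KO values, 154.4, 110.0, 142.3 and 106.6, overlapped. H1-2 was at 143.0 and 90.7 CPM for AAVS1 CBE and 224.4 and 249.8 for HOTSCRAMBL CBE, with overlapping KO values. All 3 rose with base editing, by 1.36, 1.02 and 1.02 on the log2 scale, and their KO values of -0.35, -0.09 and -0.01 did not pass the test. The H1 share of all histone CPM was 36.5% ± 4.4 for AAVS1 KO and 25.6% ± 1.0 for HOTSCRAMBL KO, and 37.3% ± 5.9 for AAVS1 CBE and 30.1% ± 1.2 for HOTSCRAMBL CBE (SD, n = 2 each). These shares were not tested.

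H3, with H4, forms the centre of the nucleosome, and 6 of 9 tested H3 genes rose with base editing. H3C7, at chr6:26250142-26250635 on the minus strand, was at 23.3 and 34.8 CPM for AAVS1 KO, 36.8 and 41.3 for HOTSCRAMBL KO, 40.6 and 35.2 for AAVS1 CBE, and 165.2 and 210.0 for HOTSCRAMBL CBE. The base-edited libraries lay several-fold above the other 6, which were close together. Its log2 fold change with base editing was 2.28 (SE 0.18, edgeR adjusted p = 8.89e-10), the smallest p of all members. H3C2, at chr6:26031589-26032099 on the minus strand, was the most abundant H3 gene per length, at 278 CPM per kilobase. It was at 77.4 and 106.5 CPM for AAVS1 KO, 48.7 and 102.1 for HOTSCRAMBL KO, 81.1 and 96.5 for AAVS1 CBE, and 273.1 and 349.9 for HOTSCRAMBL CBE. Its KO groups overlapped and its CBE groups did not (log2 1.81, SE 0.15, adjusted p = 2.21e-09). H3C10 rose by 1.65 with base editing, from 54.3 and 70.1 CPM to 172.1 and 218.6 CPM. H3C11 rose by 1.30, from 39.6 and 50.7 CPM to 105.3 and 114.9 CPM.

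**Figure D2:**
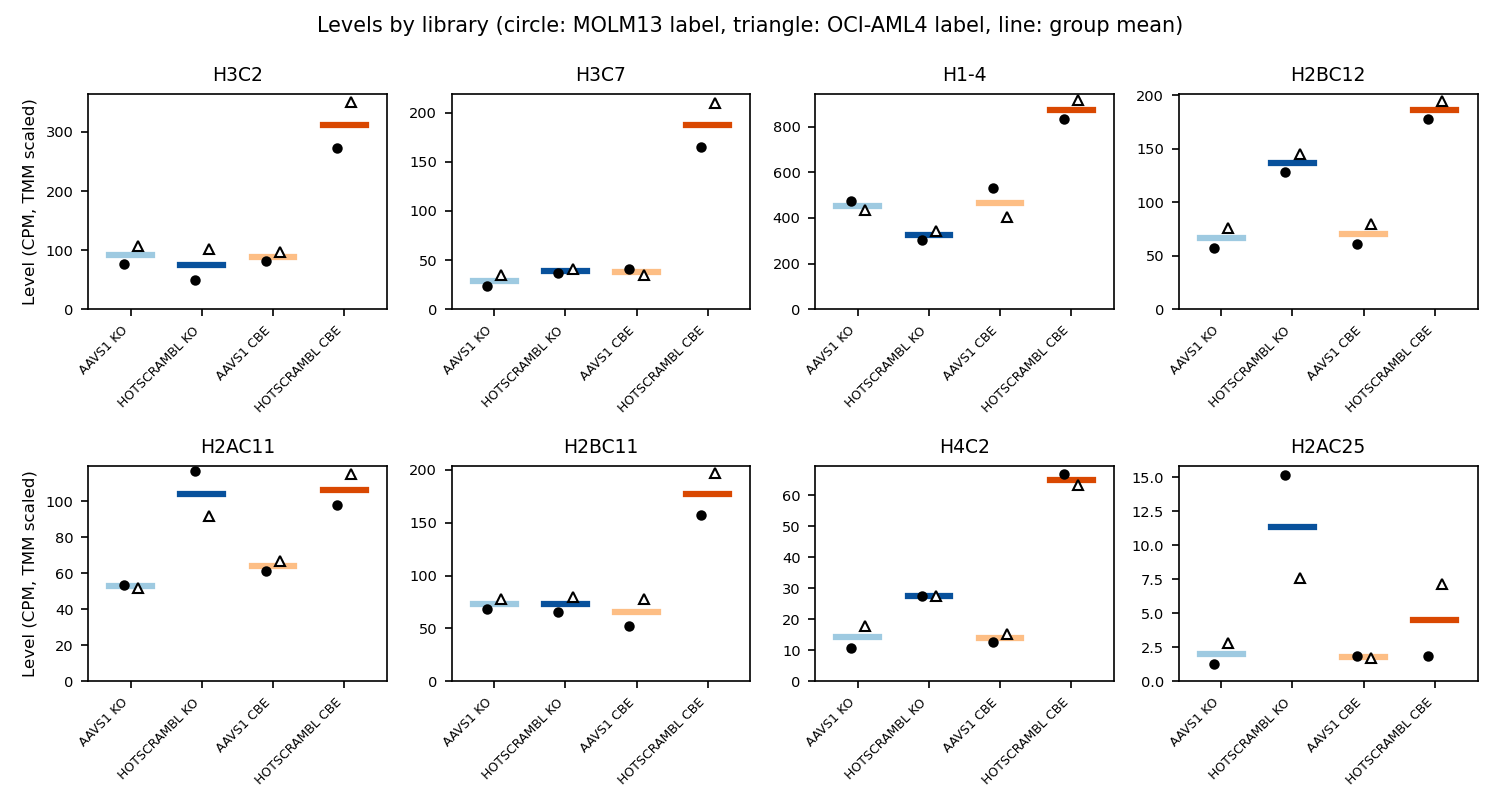
Level of 8 histone genes (CPM, TMM scaled) by library; circles are the MOLM13 label, triangles the OCI-AML4 label and lines group means. The genes were picked for display after their values were seen. H3C2, H3C7 and H2BC11 are higher in both HOTSCRAMBL CBE libraries than in the other 6, H2BC12 and H2AC11 are raised in both HOTSCRAMBL groups, and H1-4 is lowered in HOTSCRAMBL KO.

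H2B pairs with H2A in the nucleosome, and its class had the highest share of called genes with base editing, 13 of 14. H2BC12, at chr6:27146361-27146855 on the minus strand, was at 57.2 and 75.6 CPM for AAVS1 KO, 128.1 and 144.8 for HOTSCRAMBL KO, 60.9 and 80.0 for AAVS1 CBE, and 177.3 and 194.7 for HOTSCRAMBL CBE. All 4 HOTSCRAMBL libraries lay above all 4 controls. It rose by 1.04 with Cas9 (SE 0.16, edgeR adjusted p = 5.22e-05) and by 1.41 with base editing (SE 0.15, adjusted p = 1.09e-07). Of its 50-base windows, 74.1% also occur in other genes, so its counts are uncertain. H2BC5 was at 57.0 and 66.9 CPM for AAVS1 CBE and 204.0 and 226.9 for HOTSCRAMBL CBE, a rise of 1.80. In the KO groups H2BC5 was at 65.6 and 78.6 CPM, then 92.3 and 92.3, which did not pass the test. H2BC11 rose by 1.46 with base editing, from 52.1 and 78.2 CPM to 157.8 and 197.0 CPM, and was not called with Cas9, at 68.7 and 77.8 CPM against 65.8 and 79.6. H2BC8, H2BC13, H2BC17, H2BC18 and H2BC7 rose by 1.75, 1.74, 1.67, 1.67 and 1.71 with base editing. H2BC6 was the 1 tested H2B gene that was not called (log2 2.23, SE 0.79, adjusted p = 0.0815), and 28.2% of its exon length overlaps another gene.

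H2A genes held 3 of the 4 increases with Cas9. H2AC11, at chr6:27133043-27133535 on the plus strand, was at 53.6 and 51.8 CPM for AAVS1 KO, 116.6 and 91.6 for HOTSCRAMBL KO, 61.1 and 67.1 for AAVS1 CBE, and 97.7 and 115.1 for HOTSCRAMBL CBE. It rose by 0.98 with Cas9 (SE 0.19, edgeR adjusted p = 0.000917) and by 0.72 with base editing (SE 0.17, adjusted p = 0.00588). The most abundant H2A gene per length, H2AC16, was at 62.7 and 66.9 CPM for AAVS1 KO, 97.6 and 96.8 for HOTSCRAMBL KO, 67.9 and 67.0 for AAVS1 CBE, and 157.0 and 181.1 for HOTSCRAMBL CBE. Its rise was 0.58 with Cas9 and 1.32 with base editing. The Cas9 call of H2AC16 was lost in 9 settings. These included no TMM scaling, no term for labelled line, and only the 4 libraries of the contrast. H2AC25 at 1q42 was scarce, at 1.25 and 2.80 CPM for AAVS1 KO and 15.2 and 7.59 for HOTSCRAMBL KO. It rose by 2.46 (SE 0.72, edgeR adjusted p = 0.0292). That call was lost in 7 settings, among them limma-voom and only the 4 libraries of the contrast. In the base-editing groups H2AC25 was at 1.86 and 1.69 CPM, then 1.83 and 7.16, which overlapped. H2AC13, H2AC8, H2AC14 and H2AC4 rose with base editing by 1.61, 1.26, 1.14 and 1.59, and none was called with Cas9.

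H4 genes were the least abundant class and had the highest median change with base editing. H4C5, the most abundant of them per length, rose by 1.43, from 31.5 and 39.1 CPM to 108.1 and 79.2 CPM. H4C2 was at 10.8 and 17.8 CPM for AAVS1 KO, 27.4 and 27.4 for HOTSCRAMBL KO, 12.7 and 15.2 for AAVS1 CBE, and 66.8 and 63.3 for HOTSCRAMBL CBE. It rose by 2.24 with base editing (SE 0.26, edgeR adjusted p = 7.56e-07), and the KO value of 0.94 did not pass the test (adjusted p = 0.0886), although its KO groups did not overlap. H4C3 and H4C9 rose by 1.98 and 1.69. H4C11 and H4C12 gave 3.21 and 2.29 from low levels, and 81.2% and 100% of their windows occur in other genes. The summed H4 level rose 3.92-fold and 3.05-fold in the paired labels.

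With Cas9, 4 histone genes rose (H2BC12, H2AC11, H2AC25 and H2AC16) and 1 fell (H1-4), that is 5 of 56, where 8.76% of all genes tested were called, 4.51% higher and 4.25% lower. That share is close to the background with this edgeR method. DESeq2 called 14 of the 56 higher and 1 lower, where it called 2046 of all 24057 genes higher and 2185 lower. edgeR's older quasi-likelihood method called 8 higher and 1 lower, where it called 1138 of all genes higher and 1382 lower. In both, the share of members called higher was above that of all genes. Only H2BC12 was called under every alternative tried, and leaving out either AAVS1 KO library or the MOLM13-labelled HOTSCRAMBL KO library left it as the 1 call. The median over the 56 was 0.41, against -0.01 over all genes, and 44 were positive. Both HOTSCRAMBL KO libraries exceeded both controls in 30 members, against 21% of all genes, and lay below both in 4, against 23.8%. Without TMM scaling the all-gene median moved by -0.16 and the members' median was 0.25, so the distance between them changed little, from 0.43 to 0.42. Of the 6 H1 genes, 5 had negative values and 1 was called; with DESeq2's size factors 4 were negative.

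**Figure D3:**
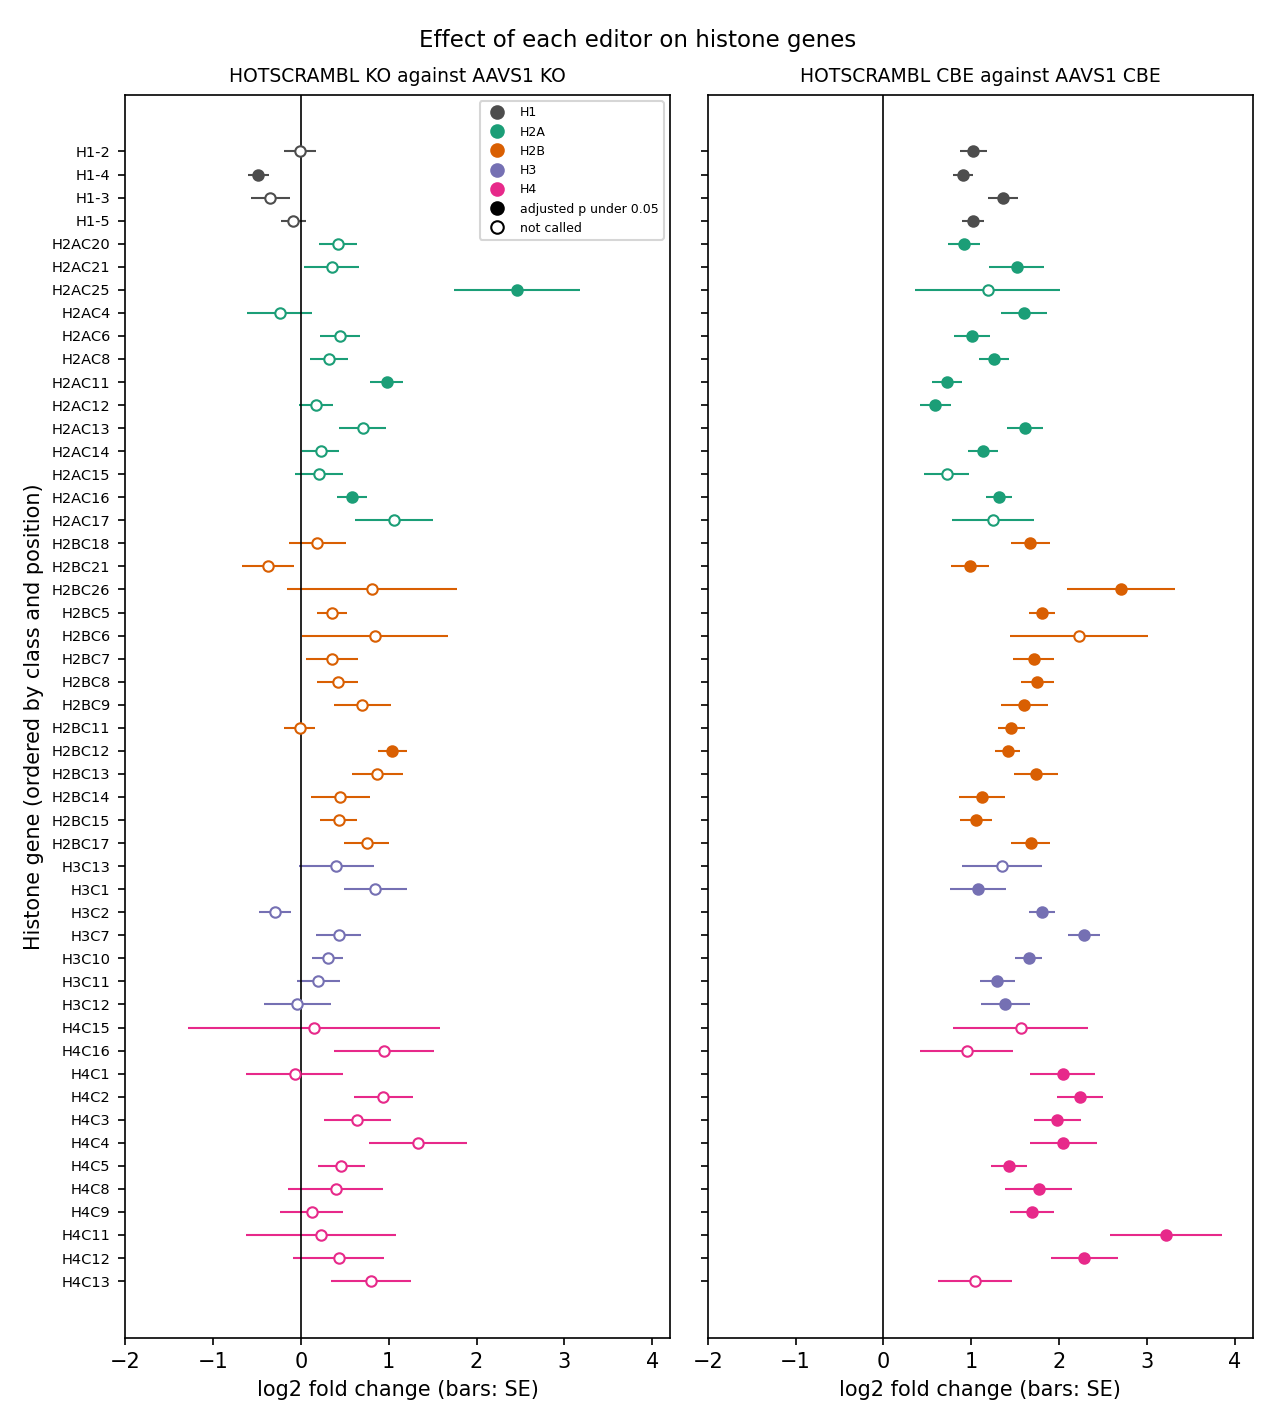
log2 fold change with its SE for 50 tested histone genes with Cas9 (left) and base editing (right), coloured by class; filled points have an adjusted p under 0.05. The 6 tested genes with an SE over 1.5 in either contrast (H1-1, H1-6, H2AC18, H2AC19, H3C6 and H3C14, none of them called) are not drawn, a limit set after the values were seen. Points on the right lie above 0, while those on the left lie on both sides of it.

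The difference between the editors was tested as an interaction. The HOTSCRAMBL effect was smaller with Cas9 than with base editing in 13 of 56 members and larger in 0, where 3.19% of all genes tested were called, 1.45% lower and 1.74% higher. The median difference, KO minus CBE, was -1.10, against -0.01 over all genes. The 13 were H3C2 (-2.10), H3C7 (-1.85), H2AC4 (-1.84), H1-3 (-1.71), H2BC18 (-1.48), H2BC11 (-1.47), H2BC5 (-1.44), H1-4 (-1.39), H2BC21 (-1.36), H3C10 (-1.35), H2BC8 (-1.33), H1-5 (-1.11) and H1-2 (-1.03). They include all 4 abundant H1 genes and no H4 gene. H2BC12 and H2AC11, raised with both editors, differed by -0.37 (SE 0.22) and 0.25 (SE 0.26), neither of which passed. With any 1 library left out the count was 6 to 9, lowest without the OCI-AML4-labelled AAVS1 KO library; H1-3, H1-4, H2BC5, H2BC11 and H3C2 were called under every alternative tried.

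Averaged over both editors, 37 of 56 members rose and 0 fell, where 12.3% of all genes tested were called (5.79% higher, 6.51% lower), and the median was 0.94. H1-4 was not among them (log2 0.21, edgeR adjusted p = 0.0996), having moved in opposite directions. Between AAVS1 KO and AAVS1 CBE, 0 of 56 members and 0% of all genes were called by edgeR, 918 genes had an unadjusted p under 0.05, and DESeq2 called 0 members and 35 genes. The members with the smallest p, H2AC21, H3C13 and H3C7, differed by 0.94, 1.08 and -0.41, each with an adjusted p of 0.991. Between the labelled lines 0 members were called, where 0.495% of all genes were (0.237% higher in MOLM13, 0.258% lower); 2210 genes had an unadjusted p under 0.05, and DESeq2 called 4 members. H3C2 came nearest, lower in the MOLM13 label by 0.47 (SE 0.11, adjusted p = 0.0591), and H1-5 and H2BC11 followed at 0.34 and -0.34.

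Many H2A and H2B genes start back to back and share the DNA between their start sites. Among members with a matched promoter there were 11 such pairs, with 194 to 248 bases between starts. Both genes were tested in 8 of them. With base editing both genes were called in 5 pairs and 1 gene in 3. With Cas9, 6 pairs had no called gene and 2 had 1. Of all genes tested, 8.83% were called with base editing and 8.76% with Cas9. H2AC12 (from chr6:27147106, plus strand) and H2BC12 (to chr6:27146855, minus strand) also start back to back. H2AC12 had no matched promoter, so their pair is not in these counts, although H2BC12 was called with both editors. In the H2AC11 and H2BC11 pair, 248 bases apart, H2AC11 rose by 0.98 with Cas9 while H2BC11 was at -0.01. With base editing H2AC11 rose by 0.72 and H2BC11 by 1.46. In the H2AC25 and H2BC26 pair, H2AC25 was called with Cas9 only and H2BC26 with base editing only (2.71, SE 0.62, edgeR adjusted p = 0.0042). The difference between partners was not tested.

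**Figure D4:**
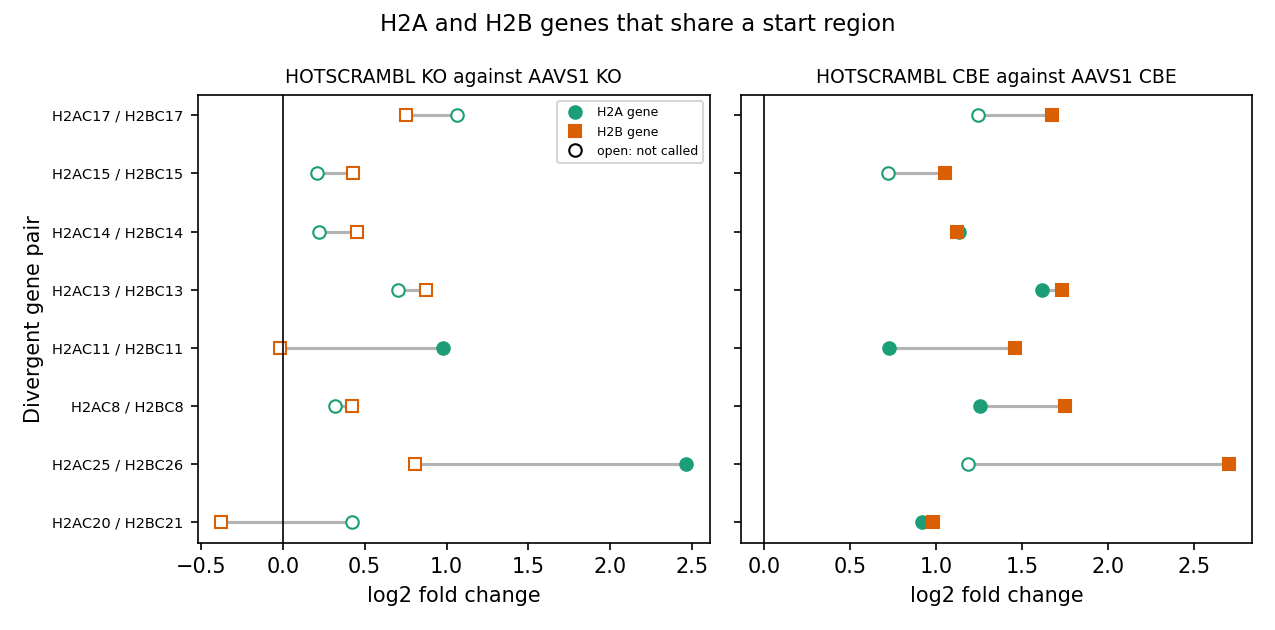
log2 fold change of the H2A gene (circle) and H2B gene (square) of 8 divergent pairs, for Cas9 (left) and base editing (right). Both genes of each pair were tested and had a matched promoter. Filled symbols have an adjusted p under 0.05. With base editing all symbols lie above 0, and with Cas9 H2AC11 and H2BC11 lie 0.98 and -0.01 from the control.

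The tested members were also grouped by promoter motif. With base editing the median was 1.36 for 43 with CCAAT and 1.91 for 8 without, all of them H4 genes. It was 1.49 for 36 with TATAAA and 1.43 for 15 without, and 1.41 for 19 with the octamer and 1.56 for 32 without. The 34 tested members with no exon overlap and under 10% shared windows had a median of 1.28, with 27 called, and the other 19 with a value had 1.56, with 14 called.

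Among 8 genes of histone transcription, 1 rose with Cas9 and 1 fell with base editing. For this list and those below, 4.51% of all genes tested rose and 4.25% fell with Cas9. With base editing 4.56% rose and 4.27% fell. CCNE2, a cyclin that activates CDK2, went from 138.1 and 131.3 CPM to 255.2 and 312.9 with Cas9, a rise of 1.08, and CCNE1 fell by 1.31 with base editing. NPAT was not called with either editor (-0.83 and 0.33). Of 12 tested genes for 3′ end processing, 0 rose and 2 fell with each editor. SRRT, which links the cap-binding complex to RNA processing, fell by 0.78 with Cas9 and 0.46 with base editing, and the scaffold SYMPK fell by 0.34 and 0.40. SLBP was at 22.6 and 25.3 CPM for AAVS1 KO, 30.6 and 33.9 for HOTSCRAMBL KO, 24.9 and 37.1 for AAVS1 CBE, and 41.4 and 31.7 for HOTSCRAMBL CBE, and was not called. RNU7-1, the U7 small nuclear RNA, had 0 counts in every library. Of 7 decay genes, UPF1 fell with Cas9 by 0.39, and with base editing DCP2 rose by 0.89 and TUT7 fell by 0.51. Several of these calls were near the threshold. Of the 8 fits that each leave out 1 library, the call was lost in 8 for UPF1 (adjusted p = 0.0448 in the full edgeR fit), 5 for TUT7, 3 for DCP2, 6 for CCNE1, and, for SYMPK, 6 with Cas9 and 3 with base editing. The calls of UPF1, TUT7 and SYMPK were also lost without the term for labelled line. SRRT with base editing lost its call in 3 fits, without either AAVS1 CBE library or the MOLM13-labelled HOTSCRAMBL CBE library.

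Of 12 histone chaperones, 2 rose and 3 fell with each editor, where 8.76% of all genes tested were called with Cas9 and 8.83% with base editing. ASF1B, which carries H3 and H4, was at 16.02 and 22.4 CPM for AAVS1 KO and 92.8 and 99.5 for HOTSCRAMBL KO, a rise of 2.33, but 0.04 with base editing. NASP, a chaperone that holds a reserve of H3 and H4, fell by 1.24 with Cas9 and was at 0.10 with base editing. CHAF1A, of the assembly factor CAF-1, fell with both, by 0.79 and 0.88, and NAP1L1 rose with both, by 0.51 and 0.76. SSRP1, a subunit of FACT, rose by 0.83 with base editing. Among variant and replication-independent histones, H2AX rose by 1.12 with Cas9 and 0.70 with base editing, while H1-10 rose with Cas9 and H3-3B with base editing (0.66 and 0.65). Leaving out 1 library in turn ended the call in 8 of 8 fits for H1-10, 6 for H2AX with base editing and 2 with Cas9, 3 for H3-3B, and 4 and 2 for NAP1L1 with Cas9 and base editing.

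Of 16 other S phase genes, 1 rose and 2 fell with Cas9, and 4 rose and 1 fell with base editing. Of all genes tested, 8.76% were called with Cas9 and 8.83% with base editing. FEN1, which processes Okazaki fragments, rose with both, by 1.06 and 1.24. PCNA, the sliding clamp, was at 62.2 and 81.8 CPM for AAVS1 CBE and 174.9 and 187.6 for HOTSCRAMBL CBE, a rise of 1.34, and 0.49 with Cas9 was not called. The helicase subunits MCM3 and MCM7 fell with Cas9, by 0.71 and 0.75, and UHRF1 fell by 0.80 with base editing. Of 13 intronless genes whose mRNAs carry a poly(A) tail, 8 rose and 0 fell with Cas9, and 1 rose and 3 fell with base editing. HSPA1B, a heat-shock protein gene, went from 18.4 and 18.8 CPM to 196.3 and 167.3 with Cas9, and from 15.1 and 32.3 to 4.71 and 8.58 with base editing. RHOB and JUNB likewise rose with Cas9 (2.18 and 1.24) and fell with base editing (-1.21 and -0.85). The falls of RHOB and JUNB with base editing were each lost in 3 of the 8 fits that leave out 1 library, and that of HSPA1B in 2. The list medians were 1.15 with Cas9 and 0.09 with base editing, where the tested histone genes had 0.41 and 1.44.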

How the data were processed

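Counts per gene were deposited without normalisation. Per the file headers, the authors made the counts with featureCounts 2.0.6 on the Ensembl 112 annotation of GRCh38, unstranded, counting each read of a pair separately and leaving out reads at several positions or over several genes. Near-identical histone genes therefore lose reads. The aligner is not given in the sources used here. The records of 2 genes broken over 4 further lines were rejoined. Groups and lines came from sample titles, and 0 columns were left over.

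The tests used edgeR 4.0.16 under R 4.3.3 (quasi-likelihood F-test, robust, TMM, filterByExpr minimum count 10, 24057 genes, terms for group and labelled line, 3 residual degrees of freedom, Benjamini-Hochberg threshold 0.05). edgeR's older quasi-likelihood method was run first; the newer one was taken instead after its all-gene count had been seen to match an earlier analysis of these data, and it calls fewer members with Cas9 (5 against 9). limma 3.58.1 and DESeq2 1.42.0 gave alternatives. Standard errors are the log2 fold change divided by the root of F. Levels are CPM after TMM scaling. The fit was checked on simulated counts with changes placed in HOTSCRAMBL CBE, 100 genes at each size. It recovered 32% of 2-fold changes and 77% of 4-fold changes, with 6 false calls. Many 2-fold changes would thus not be called. Pairing comes from the stated line alone. Deviations correlated between groups with r of 0.015 to 0.041 over tested genes and -0.19 to 0.30 over tested members. Between the labels 0.495% of genes tested were called, so the counts show little difference by label. Whether the labels mark 2 lines was not tested. Agreement between the labels is therefore not shown to be agreement between 2 lines. The 2 libraries of a group differed by more than counting noise (chi-square per degree of freedom 38.8 to 46.8).

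The members were picked by name only, with no measured value used. Earlier results of these data were known when the members, gene lists and tests were chosen. Named genes were, for each comparison, called members (at most 25 by smallest p), the most abundant member of each class, the 3 smallest p where none was called, and up to 5 called genes of each list with SLBP, NPAT and RNU7-1. Motif and stem-loop matches were exact. Some marker and variant histone results are not reported here.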

Additional observations from a re-analysis of the deposited data

Results flagged for a closer look

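The HOTSCRAMBL effect differed between Cas9 and base editing, by edgeR's interaction test at an adjusted p under 0.05, in 13 histone genes and 16 genes of the related lists. Values are the log2 effect with Cas9 minus that with base editing. Among the members they were -2.10 for H3C2, -1.39 for H1-4, -1.44 for H2BC5, -1.47 for H2BC11, -1.71 for H1-3, -1.85 for H3C7, -1.11 for H1-5, -1.35 for H3C10, -1.33 for H2BC8, -1.03 for H1-2, -1.84 for H2AC4, -1.36 for H2BC21 and -1.48 for H2BC18. Of these, H1-3, H1-4, H2BC11, H2BC5 and H3C2 were called under every alternative tried. H2AC4, H2BC8, H2BC18 and H2BC21 lost the call in all 8 fits that leave out 1 library, H1-2 in 6, and H1-5, H3C7 and H3C10 in 1 each; H2BC18 and H2BC21 also lost it without the block.

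Among histone transcription, chaperone and variant histone genes the values were 0.71 for CCNE2, 2.28 for ASF1B, -1.35 for NASP, -0.84 for SSRP1 and 1.46 for H2AJ. Among S phase genes they were -0.86 for PCNA, -0.68 for MCM7 and -0.73 for MCM3. Among intronless genes with poly(A) tails they were 5.15 for HSPA1B, 3.39 for RHOB, 2.09 for JUNB, 1.18 for IER5 and 1.46 for CEBPB, and 3 more called genes, outside the limit of 5 named per list, had 1.39 (JUN), 1.25 (CEBPD) and -0.75 (SOX4). MCM3, MCM7, PCNA and SSRP1 lost the call without the block and in all 8 fits that leave out 1 library, and CCNE2 and H2AJ lost it without the block and in 7 of 8. CEBPB lost it in 5 of 8 and IER5 in 2; JUN, CEBPD and SOX4 were not followed through the alternatives.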

How the results depend on the processing

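With base editing 42 members were called by edgeR, 46 by DESeq2, 31 from the 4 libraries of that contrast alone and 30 to 42 with 1 library left out, and 26 genes were called in every setting. With Cas9 the 5 calls became 15 by DESeq2, 9 by the older edgeR method (run first, and set aside for the newer one after counts had been seen), 2 from its 4 libraries alone and 1 to 4 with 1 library left out; leaving out either AAVS1 KO library or the MOLM13-labelled HOTSCRAMBL KO library left 1, and only H2BC12 was called in every setting. The editor difference had 13 calls, 27 by DESeq2, 22 by the older method and 6 to 9 with 1 library left out. The average had 37, and 28 to 32. Over all 24057 genes tested, the older method called 2520 with Cas9 and 1068 for the difference. Between labelled lines the 0 calls became 1 without TMM, without a filter, at a minimum count of 50, with limma-voom and with the older method, and 4 by DESeq2. Restricting the count to the 34 tested members whose span no other gene's span overlaps, introns included (48 have no exon overlap), gave 3 with Cas9, 25 with base editing, 21 for the average and 7 for the difference, fewer because fewer genes were counted.

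Without the replicate block (the labelled line), 4 members were called with Cas9, 41 with base editing, 36 for the average and 11 for the difference. Over all genes, the counts by edgeR and DESeq2 were 2108 and 4231 with Cas9, 2124 and 3438 with base editing, 2958 and 4909 for the average, 767 and 2275 for the difference (503 without the block), 0 and 35 for the controls (2 by limma-voom) and 119 and 778 for the lines (250 by limma-voom, 193 by the older method). From 4 libraries alone they were 780 and 677 for Cas9 and base editing. With 1 library left out they were 677 to 1674, 586 to 1885, 1639 to 2182, 226 to 372, 0 to 0 and 26 to 65 in that order. Without TMM the higher and lower calls were 840 and 1695 with Cas9, 782 and 1616 with base editing, and 995 and 2607 for the average, against 1085 and 1023, 1096 and 1028, and 1393 and 1565. Of 123 named results, 42 lost a call in some setting and 0 reversed; the cause was not tested. With 2 libraries a group, a lone library left after an omission is assumed to vary like the other groups. The 13 untested members had at most 20 counts in a library; why was not tested.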
